A study of Mus musculus with 6 samples.

Results

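Pre-mRNA splicing genes were followed here in regulatory T cells (Treg) that had spent 3 weeks in a mouse receiving a bone marrow graft. The genes were taken by symbol, as every row of the deposited table whose name starts with Srsf and a digit, Hnrnp, Sf3a, Sf3b or Snrp and does not contain -ps, which marks pseudogenes in the symbol. This rule found 53 genes among the 29199 in the table, namely 11 Srsf, 20 Hnrnp, 9 Sf3 and 13 Snrp genes, and left out 2 -ps rows. One of the 53, Snrpert, is annotated as a processed pseudogene, and its sequence is close to that of Snrpe. All 53 passed the filter on low counts, so none is missing from the counts below.

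RNA was sequenced from 6 libraries. In 3 of them the Treg had been injected together with wild-type (WT) conventional CD4 T cells (Tconv), and in the other 3 together with HP1α KO Tconv. HP1α, encoded by Cbx5, is a reader of the histone mark of silent chromatin. The Treg were WT in both groups and came from B6 Foxp3-Thy1.1 mice. They had been expanded with anti-CD3/CD28 beads at 1 bead per cell for 3 days and then rested for 5 to 7 days, with 500 IU/mL IL-2 and 0.1 ng/mL TGFβ1. The HP1α KO Tconv were naive cells of Hp1a-/- mice, in which a floxed allele had been excised by CMV-cre, and the WT Tconv came from Hp1a+/+ littermates, on a mixed 129/Sv and C57BL/6 background. Recipients in both groups were lethally irradiated C57BL/6 J or CD45.1+ B6 mice reconstituted with equal parts of B6 and B6D2F1 marrow, and the study used sex-matched animals of 6 to 12 weeks. Treg were sorted from the spleen by their Thy1.1 and H-2K markers, and how many recipients gave each library is not stated in the sources used here. The comparison asks whether the genotype of the neighbouring Tconv left a trace in the splicing machinery of Treg that were WT in both groups. WT and HP1α KO here name the Tconv that the Treg had been injected with.

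Splicing removes introns from nearly every mammalian transcript. The small nuclear ribonucleoproteins (snRNPs) build the spliceosome on each intron. Their common ring of Sm proteins and their specific proteins are encoded by the Snrp genes. The SF3a and SF3b complexes belong to the U2 snRNP and hold it on the branch point. SR proteins (Srsf) bind mostly exonic enhancers and favour the use of a splice site, whereas the heterogeneous nuclear ribonucleoproteins (hnRNPs) coat the nascent RNA and often, though not always, repress sites. In T cells, hnRNP L-like (Hnrnpll) and hnRNP L are known for controlling the exons of CD45, which separate naive from activated cells.

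The libraries held 87421755 to 119078882 estimated counts each. Values are given as CPM, that is counts scaled to a common library total, after TMM scaling, which removes differences in composition between libraries, unless library totals are named. WT and HP1α KO libraries carry the replicate numbers of the labels. HP1α KO library 2 stood apart, with 0.972% of its counts in mitochondrial genes against 2.52% to 2.88% in the other libraries and 6793 CPM of the nuclear RNA Malat1, on library totals, against 10640 to 14896 CPM. Summed over 7 red cell markers WT library 3 had 6155 CPM, on library totals, against 393 to 736 CPM elsewhere. Defining Treg markers were present throughout, with Foxp3 at 158 CPM in HP1α KO library 2 and between 200 and 254 CPM in the other libraries on the same scale.

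Of the members, Hnrnpa1 lies next to the gene that defines the groups. In GRCm39 its start site is at position 103148813 of chromosome 15, on the forward strand, and that of Cbx5 is at 103148419 on the reverse strand, so the start sites of the canonical transcripts point away from each other, 394 bases apart. Other annotated transcripts of Hnrnpa1 start further upstream and share 81 exonic bases with Cbx5 on the opposite strand, and a lncRNA (Gm62980) is annotated across the space between them. The 250 bases before the canonical start site of Hnrnpa1 are shown with the same window of Hnrnpa0 and Hnrnpa3, which were among the lowest hnRNPs relative to WT. Capitals mark CCAAT and GGGCGG on either strand, the letters bound by NF-Y and by Sp1-like factors. The windows lie at chr15:103148563-103148812 on the forward strand, chr13:58276371-58276620 on the reverse strand and chr2:75489355-75489604 on the forward strand, each written 5′ to 3′ on the strand of the gene.
Hnrnpa1: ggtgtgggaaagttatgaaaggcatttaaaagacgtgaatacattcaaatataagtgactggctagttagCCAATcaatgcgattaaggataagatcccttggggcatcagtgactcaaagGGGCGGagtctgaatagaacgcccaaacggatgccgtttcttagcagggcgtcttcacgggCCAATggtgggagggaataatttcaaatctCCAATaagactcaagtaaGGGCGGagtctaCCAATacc
Hnrnpa0: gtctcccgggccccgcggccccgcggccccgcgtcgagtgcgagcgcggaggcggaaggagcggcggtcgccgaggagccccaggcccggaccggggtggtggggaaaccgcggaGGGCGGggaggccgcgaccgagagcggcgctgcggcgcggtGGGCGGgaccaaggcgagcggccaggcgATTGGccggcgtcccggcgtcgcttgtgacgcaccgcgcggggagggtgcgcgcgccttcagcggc
Hnrnpa3: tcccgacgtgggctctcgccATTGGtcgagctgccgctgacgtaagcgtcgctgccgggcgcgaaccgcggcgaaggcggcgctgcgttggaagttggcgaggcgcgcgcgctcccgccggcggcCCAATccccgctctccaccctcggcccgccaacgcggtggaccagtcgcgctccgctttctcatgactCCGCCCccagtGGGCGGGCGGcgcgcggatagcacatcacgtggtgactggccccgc
The Hnrnpa1 window held 4 CCAAT and 2 GGGCGG matches and 9 CG dinucleotides, which is also the median of the windows of all genes tested. The Hnrnpa0 window held 46 CG dinucleotides with 1 CCAAT match, and the Hnrnpa3 window 41 with 2 CCAAT matches. The window of Hnrnpa2b1, the hnRNP with the lowest log2 fold change, is not shown. It held 24 CG dinucleotides and no match to CCAAT or GGGCGG.

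Beside these letters, the ETS core CGGAAG, the TATA box TATAAA, the E-box CACGTG and the cAMP response element TGACGTCA were searched on both strands over the 250 bases before the start sites. Matches of different motifs may share bases. Many of the member windows overlap annotated exons, and the canonical start site can lie inside the gene, as for Hnrnpf and Hnrnpl. CCAAT was found in 11 of 20 Hnrnp genes, 1 of 11 Srsf, 2 of 9 Sf3 and 5 of 13 Snrp genes, and in 34.3% of the 18188 windows of all genes tested. GGGCGG was found in 13 of 20 Hnrnp, 6 of 11 Srsf, 4 of 9 Sf3 and 4 of 13 Snrp genes against 39.5% of all windows. CGGAAG was found in 5 of 20 Hnrnp, 5 of 11 Srsf, 4 of 9 Sf3 and 3 of 13 Snrp genes against 17.3%. TATAAA was found in 0 of the Hnrnp and Srsf windows, 1 of 9 Sf3 and 1 of 13 Snrp windows, against 9.92% of all windows. CACGTG was found in 4 of the 53 members against 6.53% of all windows and TGACGTCA in 1 against 1.72%. Among the 18 members with an unadjusted p below 0.05, 6 had CCAAT and 11 had GGGCGG. The windows of the families also differed from those of all genes in composition. Median counts of CG dinucleotides were 21 for Hnrnp, 18 for Srsf, 16 for Sf3 and 11 for Snrp genes. The median over all genes tested was 9. The part of this composition in the motif counts was not tested. The motif counts describe letters in a window, and binding was not measured.

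Transcripts of hnRNPs were lower in Treg from mice given HP1α KO Tconv, though no single gene passed the adjusted test of edgeR. With edgeR, 19 of 20 had a log2 fold change below 0 against 51.5% of all genes tested, and their median was -0.26 against -0.01 for all genes. All 11 SR protein genes were below 0 as well, with a median of -0.15. The SF3 and snRNP genes were more mixed, since 3 of 9 Sf3 genes were below 0, with a median of 0.06, and 9 of 13 Snrp genes, with a median of -0.04. Added up on library totals, hnRNP transcripts made up 7091 ± 111 CPM (SD, n = 3) of the WT libraries and 6095 ± 546 CPM (SD, n = 3) of the HP1α KO libraries, or 86.0% of WT. SR protein transcripts reached 2927 ± 45.5 and 2631 ± 104 CPM (SD, n = 3 each), or 89.9%. SF3 transcripts were at 2234 ± 3.29 and 2243 ± 116 CPM, and snRNP protein transcripts at 689 ± 6.46 and 699 ± 38.9 CPM (SD, n = 3 each), so these 2 families differed by less than the spread of the HP1α KO libraries. With TMM-scaled totals, or without HP1α KO library 2, these 2 sums were below WT. In bulk RNA, fewer cells of a type and less RNA per cell cannot be told apart.

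**Figure D1:**
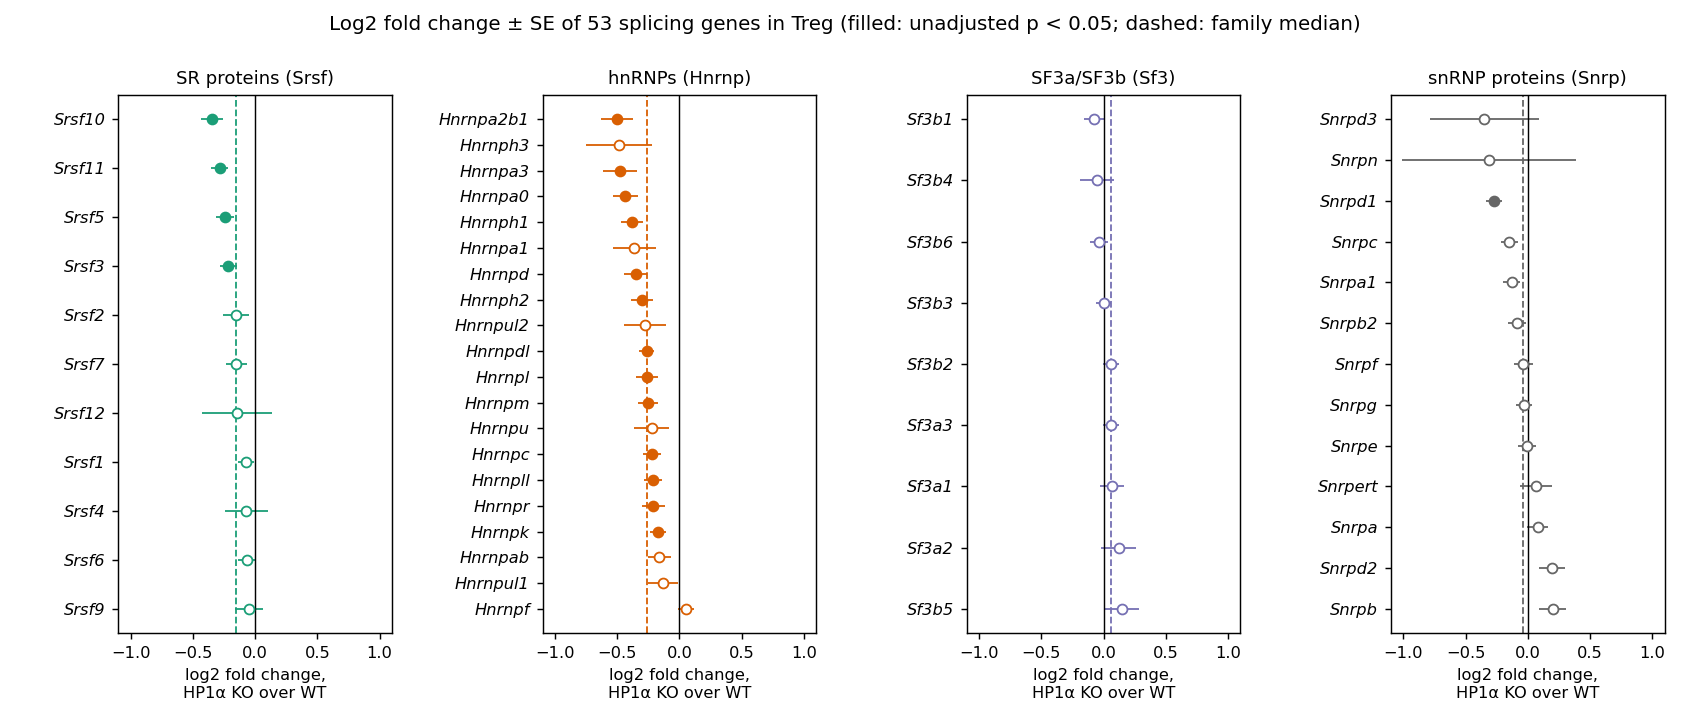
Log2 fold change (HP1α KO over WT, x axis) with its standard error for each of the 53 genes, by family, from edgeR on 3 against 3 libraries. Filled points have an unadjusted p below 0.05, and dashed lines are family medians at -0.15 (Srsf), -0.26 (Hnrnp), 0.06 (Sf3) and -0.04 (Snrp).

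No member passed the test after adjustment over all genes. By the quasi-likelihood test of edgeR, 0 of 53 members and 0% of the 18321 genes tested had an adjusted p below 0.05, the lowest adjusted p of a member being 0.209. At an unadjusted p below 0.05, 18 members were lower and 0 higher, where 7.52% of all genes were lower and 6.98% higher. The 18 were 13 Hnrnp genes, 4 Srsf genes and Snrpd1. DESeq2, the tool of the study's methods, called 9 members at an adjusted p below 0.05, all lower, against 4.35% of genes called in either direction, 3.03% called lower and 1.31% called higher. These were Hnrnpa2b1, Hnrnpa0, Hnrnph1, Hnrnpa3, Hnrnpdl, Hnrnpd, Srsf11, Srsf10 and Snrpd1. limma-voom called 0 members at that threshold. At the unadjusted one it had 18 members, all lower, where 7.69% of all genes were lower and 6.84% higher. No member came near the absolute log2 fold change of 1 that the study required, the lowest estimate being -0.50.

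The calls of DESeq2 depended on single libraries. The share of all genes called moved as well. Without WT library 1 there were 2 calls among members and 2.42% of all genes were called. Without WT library 2 there were 0 and 2.23%, and without WT library 3 there were 4 and 1.35%. Leaving out HP1α KO library 1 gave 13 calls and 5.02%, and leaving out HP1α KO library 3 gave 6 and 2.53%. Without HP1α KO library 2 there were 18 calls, among them all 9 of the calls with every library, and 11.3% of all genes were called. All of these member calls were lower.

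Ranges of the groups did not overlap for 25 members. In 24 of them, all 3 HP1α KO libraries were below all 3 WT libraries, where 11.6% of all genes showed this, and for Hnrnpf alone they were above, as for 11.5% of all genes. Of the 24, 17 were Hnrnp genes, 4 Srsf, 3 Snrp and 0 Sf3 genes. Abundant genes separate more readily: 19.4% of the 4354 genes with a mean of at least 50 CPM had HP1α KO wholly below WT and 13.3% had an unadjusted p below 0.05 in that direction, while 22 and 18 of the 40 members at that level did.

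Each HP1α KO library showed the hnRNP difference on its own. In HP1α KO library 1, 18 of 20 hnRNPs were below every WT library, against 26.9% of all genes. In HP1α KO library 2, 19 of 20 were, against 32.8%, and in HP1α KO library 3, 17 of 20, against 30.6%. The median deviation of the hnRNPs from their WT means was -0.14, -0.47 and -0.25 on the log2 scale in the 3 libraries. Library 2 was thus the lowest, and it held the lowest value of 16 of the 20 hnRNPs. Without it, the median hnRNP fold change was -0.18 on the log2 scale instead of -0.26, the summed hnRNP level was 90.3% of WT instead of 86.0%, and 14 hnRNPs had an unadjusted p below 0.05 and a lower value, where 8.92% of all genes did. The part of this library's low mitochondrial share in the hnRNP values was not tested.

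**Figure D2:**
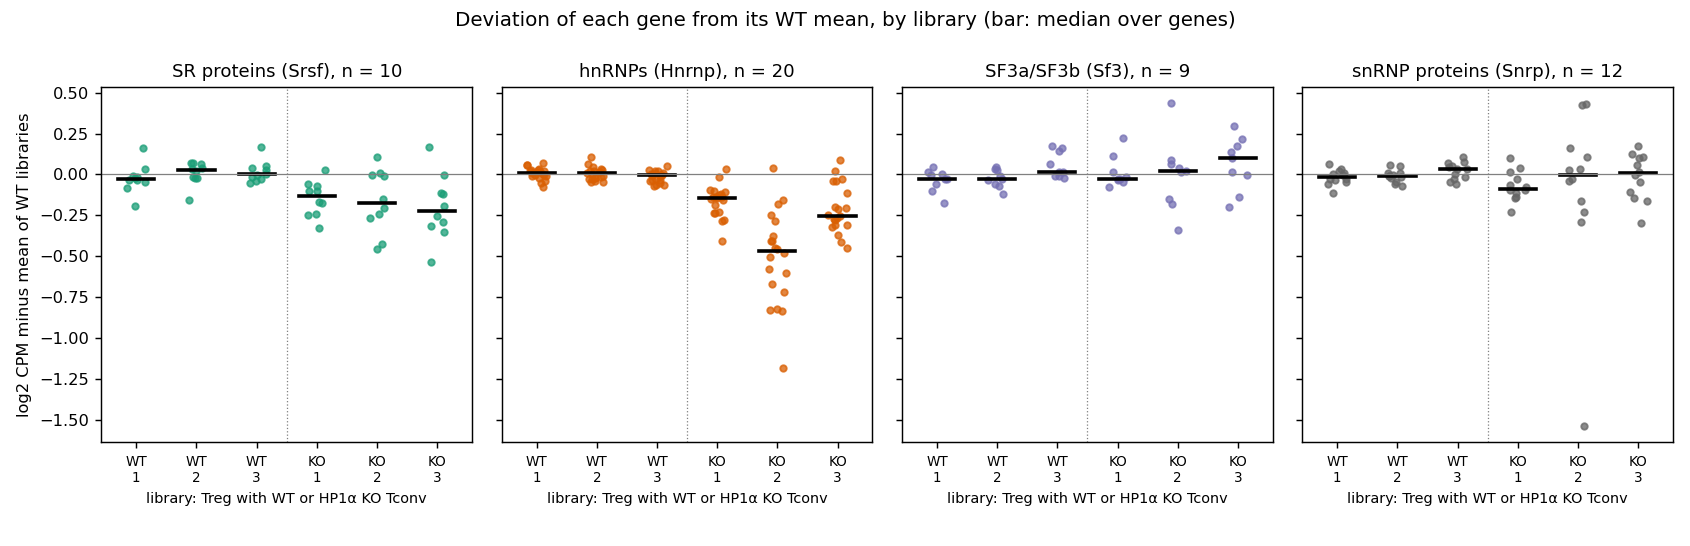
Deviation of each gene from its WT mean in log2 CPM (y axis) for the 6 libraries (x axis), by family, with black bars for the median over genes. Srsf12 and Snrpn, both below 1 CPM, are left out of the plot. The hnRNP medians lie near 0 in the WT libraries and at -0.14, -0.47 and -0.25 in HP1α KO libraries 1, 2 and 3.

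Spread within a group was smaller in WT than in HP1α KO libraries for every family. The SD of log2 CPM over the 3 WT libraries had a median of 0.037 over Hnrnp, 0.063 over Srsf, 0.042 over Sf3 and 0.058 over Snrp genes, against 0.067 over all genes at 50 CPM or more on average. Over the 3 HP1α KO libraries the medians were 0.17, 0.15, 0.12 and 0.11, against 0.10. Over HP1α KO libraries 1 and 3 alone they were 0.057, 0.079, 0.076 and 0.051, against 0.049, so the wide spread of the hnRNPs came with library 2.

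Hnrnpa2b1 encodes hnRNP A2/B1, which binds nascent RNA and sorts RNA for transport. Its level was 825, 795 and 759 CPM in WT libraries 1, 2 and 3 and 653, 448 and 580 CPM in the HP1α KO libraries. Every HP1α KO library was below every WT library, and HP1α KO library 2 was the lowest. Relative to WT the log2 fold change was -0.50 (SE 0.13), or 70.6% of the WT mean, with an adjusted p of 0.209 by edgeR and 0.00801 by DESeq2, and it was -0.36 without HP1α KO library 2.

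Of its A-type relatives, Hnrnpa3 and Hnrnpa0 were also called lower by DESeq2, and Hnrnpa1 was not. Hnrnpa3 had 334, 316 and 312 CPM in WT and 263, 180 and 248 CPM in HP1α KO libraries, a log2 fold change of -0.48 (SE 0.14) with a DESeq2 adjusted p of 0.0164, and of -0.33 without HP1α KO library 2. For Hnrnpa0, which binds AU-rich elements of cytokine transcripts, the values were 117, 117 and 109 CPM against 86.2, 72.0 and 95.8 CPM. Its log2 fold change was -0.43 (SE 0.10), and DESeq2 gave an adjusted p of 0.0105. In both genes the groups were separate and HP1α KO library 2 was again the lowest. Reads of Hnrnpa3 can be shared with processed copies, and summing the copies left its fold change at -0.48.

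Hnrnpa1, the neighbour of Cbx5, encodes hnRNP A1, the classical antagonist of SRSF1 in the choice of 5′ splice sites. It was the most abundant hnRNP per length, at 320 CPM per kilobase of its canonical transcript. The libraries had 662, 637 and 649 CPM in WT and 583, 366 and 566 CPM in HP1α KO. All HP1α KO values were lower, but HP1α KO library 2 lay far below the other 2, and the log2 fold change of -0.36 had a standard error of 0.17 and an adjusted p of 0.399 by edgeR and 0.137 by DESeq2. Without that library it was -0.18. Several annotated copies are nearly identical to Hnrnpa1, and with them summed the value was -0.36.

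Cbx5 itself, measured in the same Treg, had 141, 115 and 151 CPM in WT and 122, 107 and 131 CPM in HP1α KO libraries. The groups overlapped, and its log2 fold change was -0.17 (SE 0.12) with an adjusted p of 0.534 by edgeR. These Treg were WT for the gene, and its transcript was present in every library. Reads of the stretch that Cbx5 shares with Hnrnpa1 could be assigned to either gene if strand was not used in quantification.

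A second member stands head to head with a gene of the HP1 family. Hnrnpa2b1 starts at position 51448049 of chromosome 6 on the reverse strand and Cbx3, which encodes HP1γ, at 51447082 on the forward strand, so that the 2 genes overlap, with 968 annotated exonic bases in common on opposite strands in GRCm39. Cbx3 had 206, 205 and 211 CPM in WT and 175, 159 and 178 CPM in HP1α KO libraries. Its groups were separate too, with a log2 fold change of -0.28 (SE 0.07) and an adjusted p of 0.209 by edgeR and 0.0318 by DESeq2. The library kit keeps strand, but the same limit holds for its shared stretch.

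Partner genes of the other members were read in the same way. Counting opposite-strand start sites within 1000 bases, 21 members had such a partner, and 19 partners passed the filter. Of these 19, 9 had a log2 fold change below 0, beside 51.5% of all genes, 1 (Cbx3) was lower at an unadjusted p below 0.05 and 1 (Qpctl, beside Snrpd2) was higher. Among the 5 tested partners of members with an unadjusted p below 0.05, 3 were below 0.

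Hnrnph1, whose protein binds G-runs, had 622, 695 and 622 CPM in WT and 548, 455 and 485 CPM in HP1α KO libraries. The groups did not overlap, the log2 fold change was -0.38 (SE 0.09), and DESeq2 gave an adjusted p of 0.0110. Its close relative Hnrnpf, the single hnRNP above 0, had 757, 734 and 743 CPM against 763, 767 and 790 CPM, a log2 fold change of 0.05 (SE 0.06) with an adjusted p of 0.726 by edgeR. The 2 related genes lay on opposite sides of 0, and the difference between them was not tested.

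The D-type hnRNPs, which bind AU-rich RNA and influence mRNA decay, were both lower. Hnrnpdl had 247, 256 and 242 CPM in WT and 211, 209 and 201 CPM in HP1α KO libraries, with a log2 fold change of -0.26 (SE 0.06) and a DESeq2 adjusted p of 0.0327. All 3 HP1α KO libraries lay close together, and library 3, not 2, was the lowest. Hnrnpd had 71.0, 72.2 and 70.7 CPM against 60.9, 47.8 and 58.9 CPM, with a log2 fold change of -0.35 (SE 0.10) and a DESeq2 adjusted p of 0.0395.

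Hnrnpk, a KH-domain protein and the hnRNP with the highest CPM, differed little but evenly. Its libraries held 883, 909 and 896 CPM in WT and 807, 805 and 778 CPM in HP1α KO, which do not overlap. The log2 fold change was -0.17 (SE 0.06) and the adjusted p 0.287 by edgeR. Hnrnpu, the scaffold attachment factor, had 608, 591 and 596 CPM against 558, 395 and 587 CPM. There the difference rested on HP1α KO library 2: the log2 fold change was -0.22 (SE 0.14) with it and -0.06 without it. Hnrnpll, the regulator of CD45 exons, had 147, 158 and 161 CPM in WT and 141, 137 and 124 CPM in HP1α KO libraries. Its log2 fold change was -0.21 (SE 0.07), with an adjusted p of 0.261 by edgeR and 0.177 by DESeq2. Hnrnpl, its relative, had 316, 314 and 317 CPM against 287, 230 and 272 CPM, a log2 fold change of -0.26 (SE 0.09), or -0.17 (SE 0.05) without HP1α KO library 2. For both the groups were separate. With an offset for the GC content of transcripts Hnrnpu and Hnrnpll were at -0.10 and -0.11.

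HP1α KO library 2 also stood out in Hnrnph3, with 35.6, 37.0 and 33.8 CPM in WT and 31.1, 15.6 and 29.4 CPM in HP1α KO libraries. The log2 fold change of -0.48 had a standard error of 0.26, and it was -0.23 (SE 0.07) without that library. In Hnrnpul2 the values were 145, 148 and 143 CPM against 132, 88.2 and 141 CPM, a log2 fold change of -0.27 (SE 0.17) that was -0.09 (SE 0.06) without it. In both, all HP1α KO libraries were below all WT libraries. The other 4 hnRNPs with an unadjusted p below 0.05, Hnrnph2, Hnrnpm, Hnrnpc and Hnrnpr, had log2 fold changes from -0.30 to -0.21 and separate groups. Without that library Hnrnpr was at -0.12, with an unadjusted p of 0.0842 by edgeR. Hnrnpab and Hnrnpul1 overlapped between groups, at -0.16 and -0.13, and were at -0.07 and 0.0046 without that library.

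**Figure D3:**
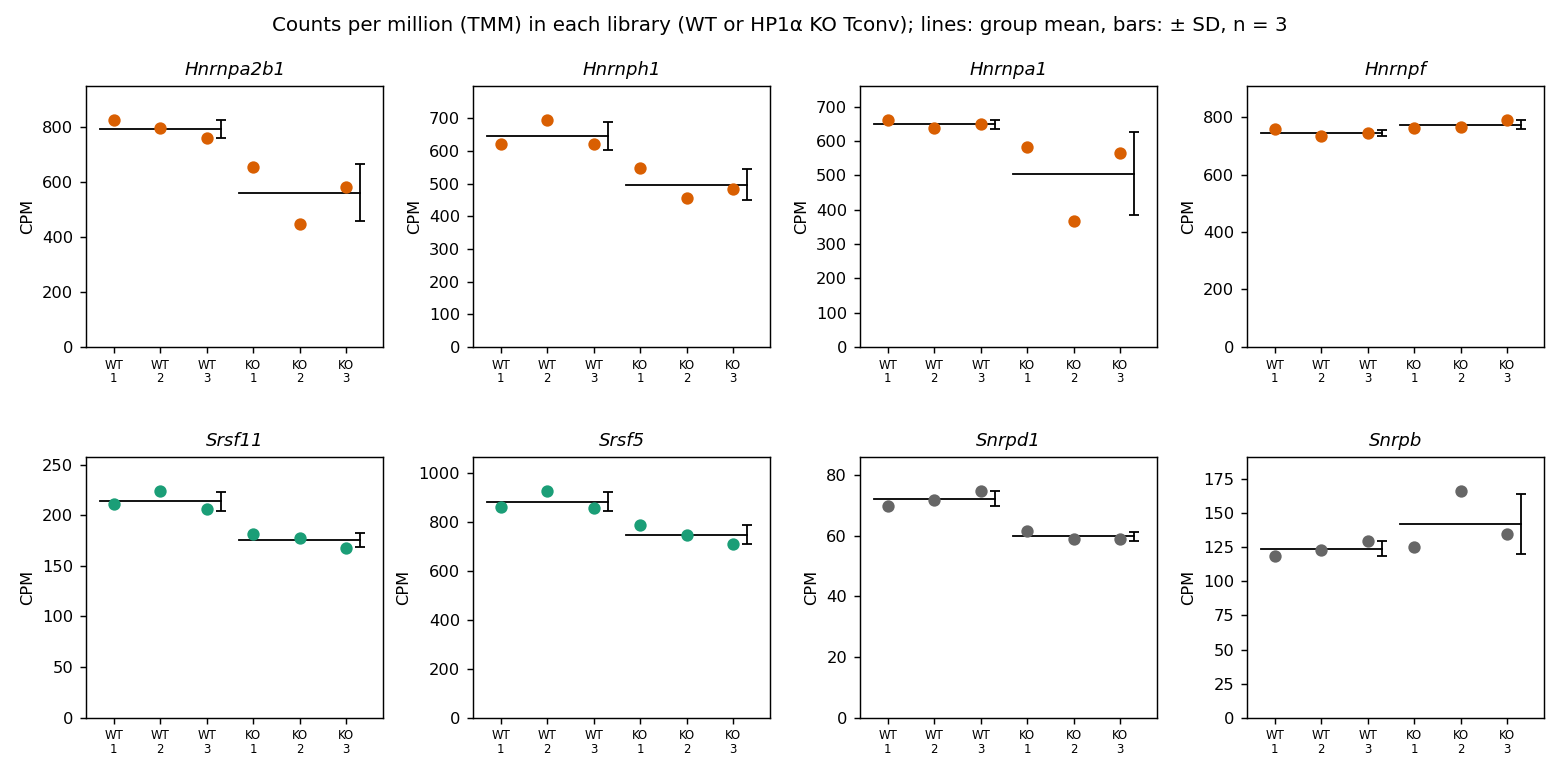
CPM after TMM scaling in each library for 8 genes (y axis from 0), with group means as lines and bars of ± SD over 3 libraries. Of these genes, 6 have all HP1α KO points below all WT points, Hnrnpf has them above, and the groups overlap for Snrpb.

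The SR protein genes were below WT too, with a median log2 fold change of -0.15 against -0.26 for the hnRNPs. Without HP1α KO library 2 these medians were -0.13 and -0.18, while the summed levels were in the other order at 88.1% of WT for Srsf and 90.3% for Hnrnp, and the difference between the families was not tested. Srsf11, an SR-related protein, had 212, 224 and 206 CPM in WT and 181, 178 and 168 CPM in HP1α KO libraries, a log2 fold change of -0.29 (SE 0.07) with an adjusted p of 0.209 by edgeR and 0.0296 by DESeq2. Srsf10, which acts as a repressor when dephosphorylated, had 192, 192 and 197 CPM against 154, 168 and 134 CPM, a log2 fold change of -0.35 (SE 0.09) and a DESeq2 adjusted p of 0.0296. Both genes were separate between groups, and here HP1α KO library 3 was the lowest. In all, 8 of the 11 Srsf genes had their lowest value in that library and 2 in HP1α KO library 2.

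Srsf5 was the most abundant member per length, at 432 CPM per kilobase. Its values were 861, 927 and 857 CPM in WT and 785, 745 and 709 CPM in HP1α KO, with a log2 fold change of -0.24 (SE 0.07) and an adjusted p of 0.230 by edgeR. Srsf3, the smallest SR protein, had 490, 532 and 537 CPM against 438, 468 and 436 CPM, with a log2 fold change of -0.22 (SE 0.07). These 2 genes also had separate groups. With an offset for GC content in each library their log2 fold changes were -0.13 and -0.10. The other classical members overlapped between groups. Srsf1 had 333 to 347 CPM in WT and 312 to 336 CPM in HP1α KO libraries, with a log2 fold change of -0.08 (SE 0.06). This value was -0.04 without WT library 1. Srsf2 and Srsf7 each had a log2 fold change of -0.15, with standard errors of 0.11 and 0.08. Without HP1α KO library 2 they were -0.04 and -0.23, and without HP1α KO library 3 they were -0.24 and -0.09. The remaining Srsf4, Srsf6, Srsf9 and Srsf12 lay between -0.15 and -0.05, with overlapping groups. Without HP1α KO library 2, Srsf4 was at 0.09, Srsf6 at -0.11, Srsf9 at -0.13 and Srsf12 at -0.05.

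Among snRNP proteins, Snrpd1 alone, 1 of 13 genes, had an unadjusted p below 0.05, where 7.52% of all genes were lower at that threshold. Together with the other Sm proteins it forms the ring around the U1, U2, U4 and U5 RNAs. It had 69.9, 71.9 and 74.9 CPM in WT and 61.6, 58.9 and 58.8 CPM in HP1α KO libraries. Groups were separate, the log2 fold change was -0.27 (SE 0.06), and the adjusted p was 0.209 by edgeR and 0.0419 by DESeq2. Its partner Snrpd2 had 51.4, 52.1 and 54.4 CPM against 54.2, 70.6 and 56.4 CPM, a log2 fold change of 0.20 (SE 0.10). Snrpb, which encodes SmB, had 119, 123 and 130 CPM against 125, 167 and 135 CPM, also with a log2 fold change of 0.20 (SE 0.11). For both the highest value was that of HP1α KO library 2, and without it the log2 fold changes were 0.07 and 0.07. Without HP1α KO library 1 they were 0.28 and 0.30. In that fit 3 Snrp genes had an unadjusted p below 0.05, 2 of them higher, where 6.51% of all genes were higher. Snrpd3, in the same ring, had 31.5, 31.4 and 30.9 CPM in WT and 29.2, 10.8 and 33.7 CPM in HP1α KO libraries, so that a single library gave its log2 fold change of -0.35 (SE 0.44), which was 0.0090 (SE 0.08) without it.

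Snrpc, a U1 protein, had 58.1, 61.4 and 58.1 CPM in WT and 54.6, 50.4 and 55.1 CPM in HP1α KO libraries, with a log2 fold change of -0.15 (SE 0.07) and an adjusted p of 0.363 by edgeR. Snrpe was the most abundant Snrp gene per length, and its log2 fold change of -0.01 (SE 0.07) has a 95% interval from -0.17 to 0.16, and without HP1α KO library 2 it was -0.07 (SE 0.05). Snrpn, the imprinted SmB paralogue of neurons, was close to absent at 0.07 to 0.43 CPM in all libraries. At this depth no difference was detectable for it. Snrpert, the copy of Snrpe, was at 4.69 to 5.69 CPM, and reads of the pair may have been split between them.

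The genes of the SF3 complexes lay close to their WT levels. Sf3b1, which contacts the branch point adenosine region and had the highest CPM of all members, had 1379, 1440 and 1400 CPM in WT and 1334, 1448 and 1225 CPM in HP1α KO libraries. The groups overlapped and the log2 fold change was -0.07 (SE 0.08), with a 95% interval from -0.26 to 0.11, and it was -0.14 without HP1α KO library 2 and -0.02 without HP1α KO library 3. Sf3a3 had a log2 fold change of 0.06 (SE 0.06), which lay between 0.04 and 0.11 with each library left out, and the smallest subunit gene Sf3b5 one of 0.14 (SE 0.14), which was -0.02 without HP1α KO library 2. No Sf3 gene had an unadjusted p below 0.05 by edgeR, beside 14.5% of all genes, or groups that did not overlap, beside 23%. With 9 genes, such an absence says little about the family. The lowest adjusted p in the family was 0.677 by edgeR. Over the 9 genes the estimates ran from -0.07 to 0.14. The interval of Sf3b1 includes the Srsf median of -0.15. Without HP1α KO library 2, Sf3a1 and Sf3a2 had an unadjusted p below 0.05, both higher, at 0.16 (SE 0.07) and 0.25 (SE 0.11), in a fit where 7.51% of all genes were higher at that threshold.

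Levels within the set spanned a wide range. Per kilobase and over all 6 libraries, Srsf5 led with 432 CPM. Hnrnpa1 (320 CPM), Hnrnph1 (237 CPM), Hnrnpa2b1 (230 CPM) and Sf3b1 (221 CPM) followed, with ranges over libraries that overlapped from each gene to the next, and their order is not the same within WT and within HP1α KO libraries. The range of Srsf5 did not overlap that of Hnrnpa1, and of 52 neighbouring pairs in the whole order 45 overlapped. Of the 10 highest genes per kilobase, 6 were Hnrnp genes. At the other end, Srsf12 and Snrpn were below 1 CPM. The length used is that of the canonical transcript, which need not be the isoform made in Treg.

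Base composition differed between the families. The canonical transcripts had a median GC content of 42.7% for Srsf, 45.8% for Hnrnp, 48.6% for Sf3 and 46.5% for Snrp genes, against 49.5% over all genes tested with a value. With an offset for GC content in each library, the median log2 fold change was -0.23 for Hnrnp, -0.08 for Srsf, 0.07 for Sf3 and 0.05 for Snrp, and that of all genes moved from -0.01 to 0.04. Under this offset 8 members, all lower, had an unadjusted p below 0.05, of them 7 Hnrnp genes and 1 Srsf gene, where 3.84% of all genes were lower. Set against the median of all genes, the Hnrnp and Srsf medians moved little under the offset, while fewer members passed the unadjusted threshold.

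**Figure D4:**
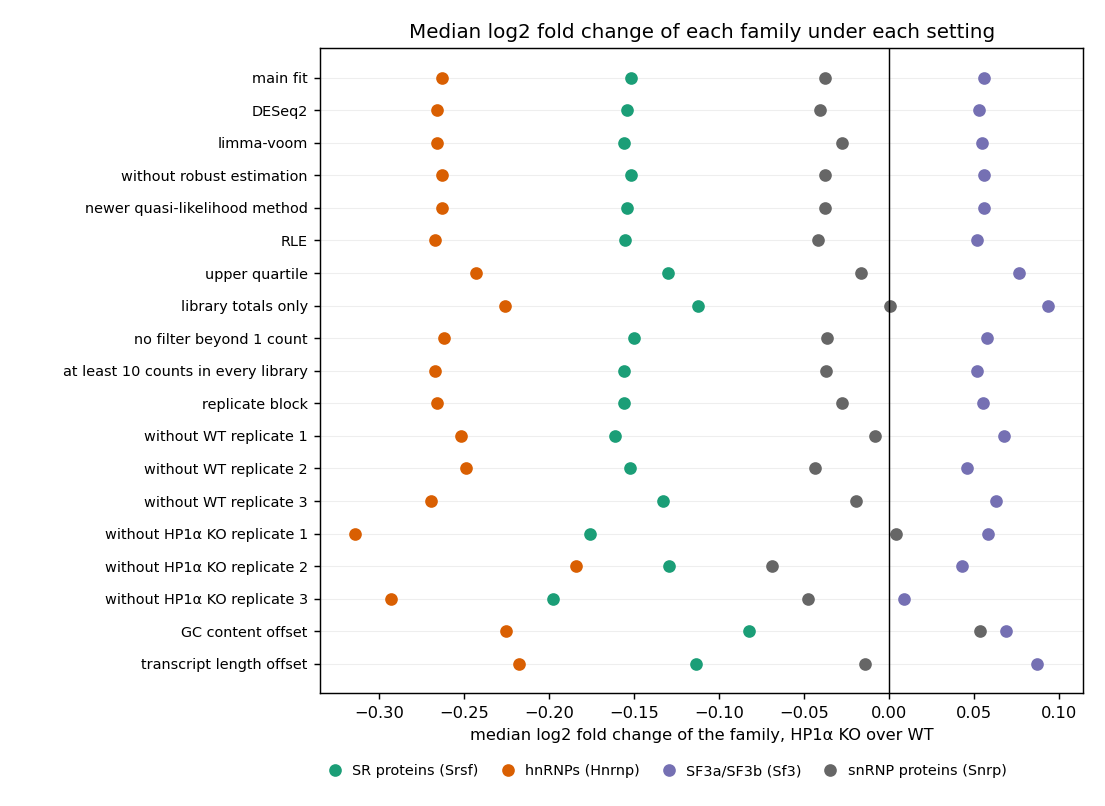
Median log2 fold change of each family (x axis, HP1α KO over WT) under the main fit and each alternative (y axis). The hnRNP medians lie between -0.31 and -0.18 and those of Srsf below 0 in every setting shown, whereas the Snrp median changes side.

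Splicing genes outside the 4 families were read from a list of 91, all of which were tested. Of these, 73 had a log2 fold change below 0, beside 51.5% of all genes, 23 were lower and 4 higher at an unadjusted p below 0.05, beside the 7.52% and 6.98% of all genes, and 0 passed after adjustment by edgeR, while DESeq2 called 8, where it called 4.35% of all genes. The median was -0.10. Proteins that recognise the 5′ splice site with U1 were below 0 in 5 of 5 cases, with a median of -0.23. Components of the U4/U6.U5 particle had 0 of 13 genes at an unadjusted p below 0.05 and a median of -0.05, and the Prp19-related complex 0 of 8 and -0.04. Regulators like hnRNPs had 7 of 20 lower and 0 higher at that threshold, with a median of -0.14, and SR-like regulators 5 of 12 lower and 2 higher. The counts of these roles were not compared by a test.

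By the smallest p, the lower genes of this list were Qk, Rnpc3 and Luc7l2. Qk, which encodes the RNA-binding protein quaking, had 115, 108 and 121 CPM in WT and 89.6, 83.9 and 83.6 CPM in HP1α KO libraries, with a log2 fold change of -0.42 (SE 0.07) and a DESeq2 adjusted p of 0.000816. Rnpc3, a protein of the minor spliceosome, had 55.4, 71.2 and 61.5 CPM against 44.3, 47.0 and 39.2 CPM and a DESeq2 adjusted p of 0.00232. Luc7l2, a U1-associated protein, had 273, 292 and 284 CPM against 239, 210 and 230 CPM and a DESeq2 adjusted p of 0.0150. In these 3 genes all HP1α KO libraries were below all WT libraries. The higher genes with the smallest p were Rbm5, at 221, 202 and 191 CPM in WT and 233, 250 and 253 CPM in HP1α KO libraries, Zmat5 with a log2 fold change of 0.29 (SE 0.09) and Lsm7 with 0.28 (SE 0.11). None of them passed either test after adjustment.

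Sums of cell type markers overlapped between the groups. The 6 Treg markers summed to 3966 to 4577 CPM in WT and 3802 to 4060 CPM in HP1α KO libraries, and the 10 markers of dividing cells to 1496 to 2355 CPM and 1704 to 1810 CPM, on library totals. Red cell markers ranged from 393 to 6155 CPM in WT and from 405 to 736 CPM in HP1α KO libraries, neutrophil markers from 41.0 to 1818 CPM and from 78.9 to 225 CPM, with the highest value in WT library 3 in each case. Without that library the hnRNP median was -0.27 and 19 of 20 hnRNPs were still below 0. Among the other libraries, red cell markers were at 702 and 736 CPM in HP1α KO libraries 1 and 3 and at 393 to 405 CPM in the rest. Neutrophil markers were at 192 and 225 CPM in HP1α KO libraries 1 and 3 and at 41.0 to 98.8 CPM in the rest. The macrophage, B cell, CD8 T cell and NK cell lists reached at most 176, 24.4, 8.85 and 5.48 CPM in any library, and the NK markers Ncr1 and Klra8 were at 0 in WT library 2. Of the marker genes tested, 1 Treg marker was lower at an unadjusted p below 0.05, where 7.52% of all genes were lower. The Treg marker Ctla4 had 1243, 1322 and 1093 CPM in WT and 1029, 1047 and 806 CPM in HP1α KO libraries, on library totals. The rest of that list, Foxp3, Il2ra, Ikzf2, Cd4 and Cd3e, overlapped between groups. Foxp3, Il2ra and Cd4 had their highest value in HP1α KO library 3 and their lowest in HP1α KO library 2. The part of these cells in the splicing values was not tested.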

How the data were processed

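Total RNA was sequenced from sorted Treg, 3 libraries per group. The authors trimmed reads (Trim Galore 0.6.7, Cutadapt 3.4), aligned them with STAR 2.7.10a to GRCm39 with an Ensembl annotation and quantified genes with Salmon 1.5.2 within nf-core/rnaseq 3.9. The authors deposited whole-number estimated counts without normalization, and Salmon divides ambiguous reads between near-identical genes by a model. No per-sample column was left unused.

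Counts were tested with edgeR 4.0.16 (glmQLFit with robust = TRUE, glmQLFTest, TMM, filterByExpr, R 4.3.3) on all 18321 genes kept, with Benjamini-Hochberg adjustment over all of them and group as the sole term. Standard errors are of the log2 fold change, HP1α KO over WT. DESeq2 1.42.0 and limma-voom (limma 3.58.1) were run as alternatives, with other scalings, filters, a replicate block and each library left out. An adjusted p that DESeq2 does not give (Snrpn, Srsf12) was left as missing. The scripts were tested on simulated data. Offsets for GC content and transcript length (loess, span 0.5), summed copies (at least 95% identity over 200 bases) and a filter before DESeq2 were chosen after seeing the data. Annotation and windows before start sites came from GENCODE vM39 (GRCm39), whose identifiers matched 28854 of 29199 genes and all 53 members.

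Members and lists were chosen with earlier results of these data known, so no set test was run and the shares of all genes are given beside the main counts. Named were any member with an edgeR adjusted p below 0.05, the 3 with the smallest p and the most abundant of each family, 13 genes fixed by name, up to 10 DESeq2 calls, and 3 genes in each direction of the further list. Every other member and the partner genes were named after their values had been seen. Nothing in the labels says that libraries of a group came from separate animals, so p-values measure the spread between libraries, which may be technical. Libraries of a group differed by more than counting error. Total counts of 87421755 or more per library leave counting error small for all members except Snrpn and Srsf12, and intervals cover what the fit estimates.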

Additional observations from a re-analysis of the deposited data

How the results depend on the processing

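No member had an adjusted p below 0.05 by edgeR under any of the alternatives run. DESeq2 called 9, beside 4.35% of all genes, or 11 when the edgeR filter preceded it. The share of all genes called after that filter is not given here. Leaving out each library in turn, DESeq2 called 0 (without WT library 2) to 18 members (without HP1α KO library 2). At the unadjusted threshold of edgeR the count of 18 members became 11 without WT library 2, where 5.18% of all genes were lower. It was 23 without HP1α KO library 2, where 8.92% were lower and 2 of the 23 members higher. Without HP1α KO library 1 it was 18, 2 of them higher, where 6.04% of all genes were lower and 6.51% higher. It was 8 with the GC offset (3.84% lower) and 11 with the transcript length offset (4.43% lower). The count of 27 further splicing genes became 17 without WT library 1, where 5.45% of all genes were lower and 5.18% higher. It was 14 without WT library 2 (5.18% and 5.8%), 12 with the GC offset (3.84% and 6.23%) and 15 with the length offset (4.43% and 7.01%). The median log2 fold change of members, -0.15, was -0.19 to -0.11 with a library left out, -0.10 with the GC offset and -0.11 with the length offset. The Hnrnp and Srsf medians kept their sign in every setting run. The Sf3 median of 0.056 was 0.0087 without HP1α KO library 3 and 0.094 on library totals. The Snrp median of -0.04 was 0.00047 on library totals and 0.054 with the GC offset, and -0.069 to 0.0039 with a library left out. Other values that changed sign, among the sums and the members named by rule, were Sf3b1 at 0.039 with the GC and 0.0059 with the length offset, Srsf1 at 0.045 with the GC offset, Sf3b5 at -0.020 to 0.24 and Snrpn at -0.69 to 0.83 with a library left out, and the log2 ratios of summed levels, at -0.032 for Sf3 (0.0059 on library totals) and -0.018 for Snrp (0.021) with TMM-scaled totals and -0.037 and -0.023 without HP1α KO library 2. Without HP1α KO library 2, Srsf4 (0.094), Hnrnpul1 (0.0046), Snrpd3 (0.0090), Sf3b4 (0.071) and Sf3b3 (-0.0093) changed sign as well. With the GC offset Srsf7 was at -0.033 and Snrpd1 at -0.17, and with the length offset Hnrnpk was at -0.11 and Hnrnpu at -0.13, in each case over 1.5 times nearer to 0. The causes were not tested. With the replicate number as a block in edgeR, 18 members had an unadjusted p below 0.05 (6.32% of all genes were lower), 17 of them shared with the fit without it, 0 passed after adjustment and the median was -0.15. Deviations of same-numbered libraries correlated at -0.04, 0.18 and 0.11 over genes, and WT library 3 correlated at 0.12 with HP1α KO library 1. The labels do not say whether same-numbered libraries were paired. These correlations cannot decide it, since the deviations were taken from the mean of only 3 libraries per group. The depth limits statements for Snrpn and Srsf12, both below 1 CPM.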
